A study of Homo sapiens with 3 samples.

Results

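The genes described here encode the factors that start protein synthesis and carry it along the mRNA, the translation initiation factors (EIF) and elongation factors (EEF), together with the small proteins that hold back the cap-binding factor eIF4E. Members were the rows of the deposited expression table whose symbol begins with EIF or EEF and a digit, with the eIF2 kinases and all pseudogene, readthrough and antisense rows left out. The rule used names and descriptions, not expression values, and gave 67 of 34520 rows. Of these, 61 had a mean of at least 1 FPKM (fragments per kilobase of exon, scaled to the mapped library) over the libraries and are called the considered members. The 6 below that level were EIF2S3B, EIF1AY, EIF4EBP3, EIF5AL1 and the noncoding divergent transcripts EIF5-DT and EIF2B5-DT. The other divergent transcript, EIF3J-DT, matched the naming rule and was considered with 2.48, 2.85 and 1.89 FPKM in the control, 2 µM and 4 µM libraries (the order used throughout), although it encodes no factor.

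RNA was sequenced from SK-N-BE(2), an established human neuroblastoma cell line with amplified MYCN. Control cells were compared with cells exposed for 12 h to 2 µM or 4 µM arsenic trioxide (ATO). The series concerns ATO as a compound that keeps N-Myc off its DNA sites. The labels do not say whether control cells received a vehicle. There was 1 library per group, all from this 1 line, so no difference below has a replicate check and none was tested.

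Translation of most mRNAs starts when the eIF4F complex binds the cap and eIF2 delivers the initiator tRNA to the small ribosomal subunit, which then scans to the start codon with eIF1, eIF1A, eIF3 and eIF5. eIF2 works with bound GTP, which the exchange factor eIF2B renews, and phosphorylation of eIF2 by stress kinases blocks that exchange and lowers overall initiation. Elongation is carried by eEF1, which brings aminoacyl-tRNA, and eEF2, which moves the ribosome on. MYC proteins are known to drive many genes of the protein synthesis machinery.

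For 3119 of 14147 rows that could be checked, FPKM multiplied by the length of all exons of a gene joined came out as whole multiples of a common step. Levels compared between genes are taken as per exon length, which would understate genes with long alternative exons. The spacing of low values put the depth of the libraries at 1.03 times the control for 2 µM and 0.986 times for 4 µM. The spacing was read from a histogram with bins as wide as the 4 µM difference, so these depths are approximate. If 2 counted units make a fragment, the counting error (CV) at the lowest of a member's values had a median of 2.46% over the 61 considered members and was below 10% for 59 of them. The highest was 19.1%, for EEF1AKMT1. The labelled cell type was checked on adrenergic neuroblastoma markers, and those reported here were detected and lower with ATO. MYCN measured 832, 412 and 197 FPKM, and HAND2 97.2, 73.9 and 35.4. Of the markers of other cell types, PTPRC, KRT8 and ALB lay below 0.2 FPKM in every library and PECAM1 below 1, whereas EPCAM had 1.34, 1.02 and 1.28 FPKM. CD68 had 0.534, 3.69 and 4.87 FPKM, COL1A1 34.7, 23.4 and 16.0 and COL3A1 20.5, 12.5 and 5.45, and the part of these shifts in the results below was not tested. In bulk RNA, fewer cells of a kind and less RNA per cell cannot be told apart.

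Most factor mRNAs stayed near their control level, and a few start site factors and the repressor EIF4EBP1 stood higher while methyltransferases of the elongation factors stood lower. Differences are given as log2 folds, the log2 ratio of FPKM + 1, which understates the differences of low genes. At 4 µM against control the considered members had a median log2 fold of -0.21, and 44 of 61 (72.1%) were below 0. All 12433 considered rows of the table had a median of -0.13, with 59.9% below 0. The spread was narrower among members, with an interquartile range of 0.43 against 0.68 for all rows. Scaling the libraries by their median of ratios moved the median of all rows from -0.13 to -0.003, and that of the members to -0.06 with 35 of 61 below 0.

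At 4 µM, 1 member was higher by at least 2-fold, EIF1, where 4.19% of all considered rows were, and 2 were lower, EEF1AKMT4 and EEF2KMT, where 5.27% were. At 1.5-fold, 4 members were higher (EIF1, EIF5, EIF4EBP1 and EIF1B), against 10.6% of all rows. On the lower side at 1.5-fold were 7 members, EEF2KMT, EEF1AKMT4, EIF4E3, EEF1AKMT2, EEF2K, EIF2D and EIF5A, against 17.4%. These shares of the members, 6.56% and 11.5%, lay below those of the table in both directions. The split depended on scaling. With median-of-ratios factors it was 3 higher and 1 lower at 2-fold, where 5.76% and 3.82% of all rows were, and 6 higher and 3 lower at 1.5-fold, where 14.5% and 12.8% were. With upper-quartile factors or rescaling to TPM (a common sum in each library) it was 2 and 2 at 2-fold, and 5 and 7 at 1.5-fold. The shares of all rows at 2-fold were then 4.61% and 4.84% with upper-quartile factors and 6.38% and 7.58% with TPM. At 1.5-fold they were 11.6% and 15.9%, and 14.2% and 20.1%.

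At 2 µM the members had a median log2 fold of 0.06, with 42 of 61 above 0 and 31.1% below. All rows had a median of 0.01, with 48.4% below 0. The number of members above 0 was 40 with median-of-ratios, 33 with upper-quartile and 34 with TPM scaling. Among rows averaging 10 FPKM or more the medians at 2 µM were alike, at 0.07 for 44 members and 0.07 for all 4276 such rows. Of these, 27.3% of the members and 39.0% of the rows were below 0. No member passed 2-fold at 2 µM, where 1.16% of rows were higher and 0.901% were lower. EIF4EBP1 and EIF1 were higher by 1.5-fold, EIF1 not so with upper-quartile scaling, against 4.69% of rows, and no member was lower by that size, against 4.32%. From 2 µM to 4 µM the median was -0.23 with 45 of 61 (73.8%) below 0, beside -0.12 and 63.0% for all rows. For rows averaging 10 FPKM or more the medians were alike in this step, at -0.12 for 44 members and -0.12 for all 4276 such rows. No member passed 2-fold in this step, where 1.14% of rows were higher and 1.34% lower. None was higher by 1.5-fold, against 4.73% of rows, and 6 were lower (9.84%), against 9.72%. These were EEF2KMT, EEF1AKMT4, EEF1AKMT2, EIF5A, EEF1AKMT1 and EIF3K. For this step the 1.5-fold split was 3 higher and 3 lower with median-of-ratios scaling, 1 and 4 with upper-quartile scaling and 3 and 4 with TPM. The shares of all rows were 7.95% and 5.19%, 6.12% and 6.98%, and 8.48% and 10.9%. The comparisons share libraries, so they are not independent of each other.

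**Figure D1:**
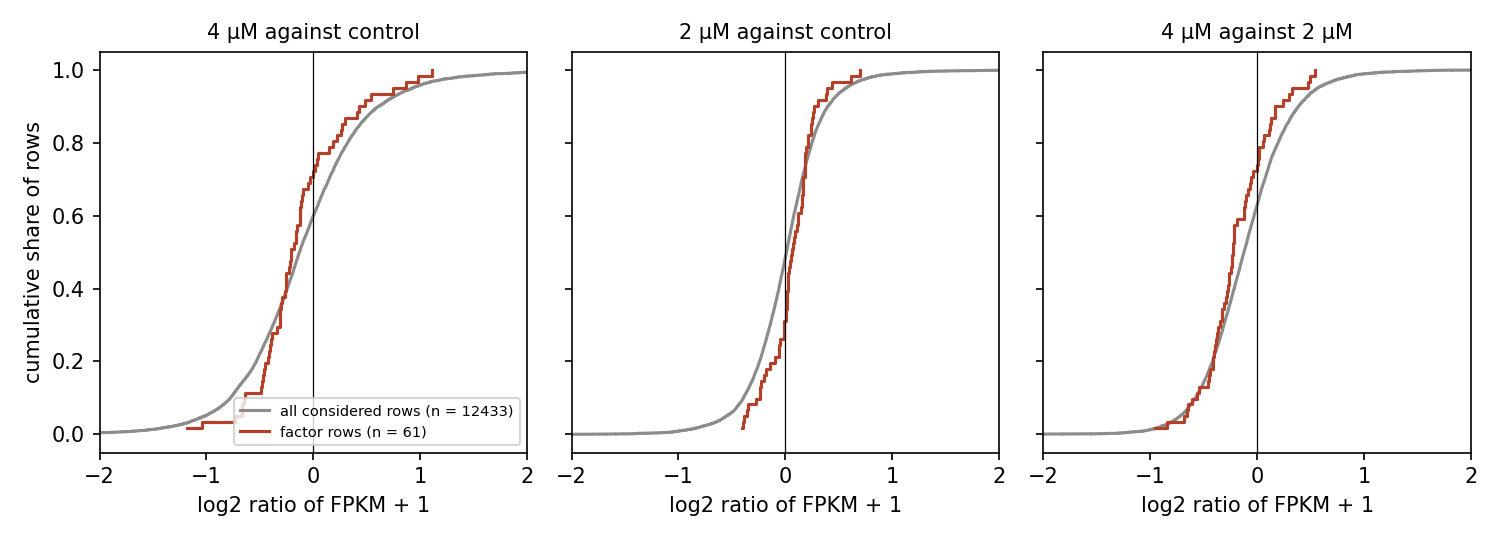
Cumulative share of rows (vertical axis) by log2 ratio of FPKM + 1 (horizontal axis, shown from -2 to 2) for the 3 comparisons, with the 61 considered factor rows in red and all 12433 considered rows in grey. The red curve is the steeper one, and at 4 µM against control it crosses 0 with 72.1% of the factors below, against 59.9% of all rows.

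By dose, 14 considered members (23.0%) were higher at each step, where 22.8% of all rows were, and 17 (27.9%) were lower at each step, where 34.2% were. A further 28 had their highest value at 2 µM, 45.9% of the members and 28.8% of all rows. Only EEF2 and EIF4G1 had their lowest value at 2 µM as deposited, 3.28% of the members and 14.2% of all rows. The patterns with small steps moved with scaling, and the number highest at 2 µM was 25 with median-of-ratios factors, 20 with upper-quartile factors and 21 with TPM. The corresponding shares of all rows were 20.9%, 21.6% and 22.1%. Under the same scalings 10 (16.4%), 8 (13.1%) and 8 (13.1%) members were lowest at 2 µM, beside 20.8%, 19.2% and 19% of all rows.

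**Figure D2:**
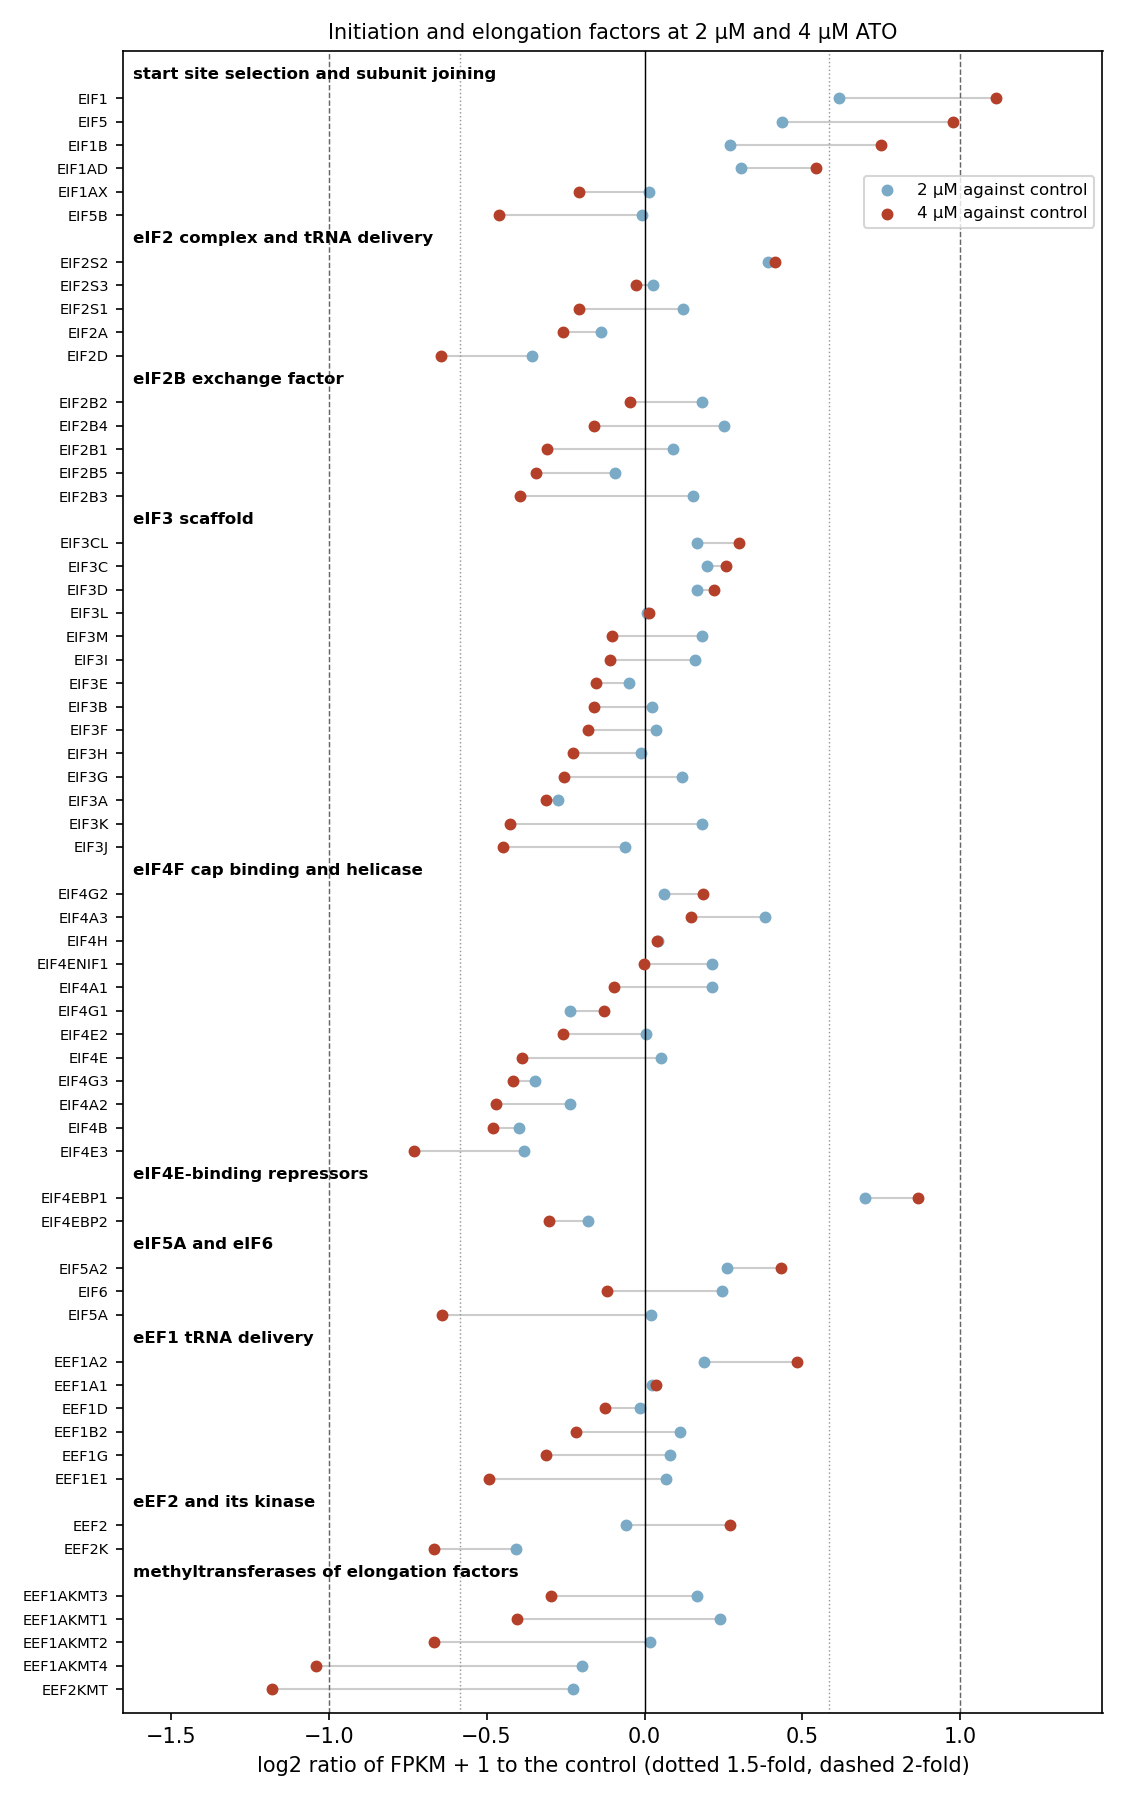
Log2 ratio of FPKM + 1 to the control (horizontal axis) for the 60 considered protein-coding members, grouped by role, with 1 library per group: blue points 2 µM, red points 4 µM, dotted lines 1.5-fold and dashed lines 2-fold. EIF1, EIF5, EIF1B and EIF4EBP1 lie furthest right, and EEF2KMT and EEF1AKMT4 furthest left, with EEF2KMT at -1.18 as deposited.

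The start site factors held the members with the highest folds. EIF1, whose protein guards against starting at the wrong codon, had 80.6, 124 and 175 FPKM, a log2 fold of 1.11 at 4 µM and 0.62 at 2 µM. EIF5, the GTPase-activating protein of eIF2, had 36.0, 49.1 and 71.9 FPKM, with a fold of 0.98 at 4 µM, just short of the 2-fold line. That fold was 1.13 with median-of-ratios, 1.02 with upper-quartile and 1.05 with TPM scaling, past the line in each case. Both transcripts were higher at each dose, and their levels kept a near ratio, with EIF1 at 2.24, 2.53 and 2.44 times EIF5.

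EIF1B, a close paralog of EIF1, was at a lower level, with 9.00, 11.1 and 15.8 FPKM and a log2 fold of 0.75 at 4 µM, or 0.57 and below 1.5-fold with a pseudocount of 5. EIF1AD, which is named for an eIF1A domain, had 15.7, 19.6 and 23.3 FPKM (0.54). It passed 1.5-fold with median-of-ratios (0.69), upper-quartile (0.59) and TPM (0.62) scaling. The other considered members of the group did not follow. EIF1AX, encoding the eIF1A that keeps the scanning complex open, had 21.3, 21.6 and 18.3 FPKM, and EIF5B, the GTPase of subunit joining, had 22.6, 22.5 and 16.2 FPKM (-0.46). Of 6 considered members in this group, 4 were above 0 and 2 below at 4 µM under every scaling tried. The share of all considered rows below 0 was 59.9% as deposited. EIF1AY, its remaining member, was below the filter.

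The sequence around the start codon is shown because eIF1 and eIF5 act on how strictly it is read. A purine at position -3 and G at position 4, counted from the A of the start codon as 1, are the features of a strong context. The contexts below, taken from the principal coding transcripts of GENCODE 29 on GRCh38 and written 5′ to 3′, have position -3, the start codon and position 4 in capitals. EEF1A1 (chromosome 6, minus strand) and EEF2 (chromosome 19, minus strand) are set beside EIF1 (chromosome 17, plus strand), EIF1B (chromosome 3, plus strand), EIF4A1 (chromosome 17, plus strand) and EIF5 (chromosome 14, plus strand).
EEF1A1: aaagccAaaATGG
EEF2: tccgccAccATGG
EIF4A1: ctaaggAtcATGT
EIF5: taagccAaaATGT
EIF1: tcgtatCgtATGT
EIF1B: tagtatCgcATGT
EIF1 and EIF1B had neither feature, as did EIF3B alone among the other members. Of 62 members with a principal coding transcript, 56 had a purine at -3, 33 had G at 4 and 30 had both. This comparison was chosen after the values were seen. That the EIF1 start codon lies in a poor context is a known feature of the gene.

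The promoters of EIF1 and EIF1B are shown because the pair moved in the same direction and only EIF1B holds the E-box CACGTG, the canonical site of MYC family proteins. Each stretch runs from 250 bases before the annotated start to 10 bases after it, from RefSeq on GRCh38.p14, with E-boxes in capitals. EIF1 lies at chr17:41688635-41688894 on the plus strand and EIF1B at chr3:40309457-40309716 on the plus strand.
EIF1: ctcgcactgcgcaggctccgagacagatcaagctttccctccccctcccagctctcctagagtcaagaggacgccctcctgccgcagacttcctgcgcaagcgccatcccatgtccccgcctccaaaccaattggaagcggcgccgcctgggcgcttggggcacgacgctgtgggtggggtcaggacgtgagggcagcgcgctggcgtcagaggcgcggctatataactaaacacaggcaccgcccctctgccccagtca
EIF1B: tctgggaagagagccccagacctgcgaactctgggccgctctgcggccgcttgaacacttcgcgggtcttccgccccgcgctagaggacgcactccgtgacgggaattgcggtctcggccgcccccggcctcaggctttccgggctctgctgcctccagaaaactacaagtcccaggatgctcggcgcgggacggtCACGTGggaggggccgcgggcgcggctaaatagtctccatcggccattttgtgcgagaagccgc
The EIF1B match begins at -54 from the start, and the EIF1 window holds none.

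The eIF2 complex moved little and its subunits did not move together. EIF2S2, the beta subunit, had 40.9, 54.0 and 54.8 FPKM, log2 folds of 0.39 at 2 µM and 0.41 at 4 µM. EIF2S1, the alpha subunit that stress kinases phosphorylate, had 23.2, 25.3 and 20.0 FPKM (-0.21 at 4 µM). The gamma subunit EIF2S3, which holds the tRNA, had 47.1, 48.0 and 46.2 FPKM (-0.03), and its sign turned under each scaling tried. The level of EIF2S1 was 0.567 times that of EIF2S2 in the control and 0.364 times at 4 µM, with 0.469 at 2 µM between them.

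Both other considered members of this group encode separate initiator tRNA factors that are no part of the complex. EIF2D had 6.01, 4.47 and 3.48 FPKM, a fold of -0.64 at 4 µM that was below 1.5-fold with median-of-ratios scaling or a pseudocount of 5. EIF2A had 21.1, 19.1 and 17.5 FPKM (-0.26). EIF2S3B, a near-identical copy of EIF2S3, stood at 1.03, 0.793 and 0.675 FPKM, below the filter on the mean.

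All 5 subunits of eIF2B were lower than control at 4 µM as deposited, by less than 1.5-fold, with EIF2B2 turning above 0 under median-of-ratios and TPM scaling. EIF2B3 had the lowest fold, with 7.83, 8.81 and 5.71 FPKM (-0.40), and its partner in the catalytic part, EIF2B5, had 9.86, 9.17 and 7.56 FPKM (-0.34). EIF2B1, of the regulatory part, had 23.9, 25.6 and 19.1 FPKM (-0.31). EIF2B4 had 10.4, 12.6 and 9.21 FPKM (-0.16) and EIF2B2 had 7.69, 8.86 and 7.42 FPKM (-0.05). At 2 µM, 4 of the 5 were above control, EIF2B5 being the exception. From 2 µM to 4 µM all 5 were lower, by log2 folds of -0.23 to -0.55, and this held under every scaling tried. Of all considered rows, 63.0% were below 0 in this step, 59.9% at 4 µM against control and 48.4% at 2 µM against control, as deposited.

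The 14 considered genes of eIF3, the scaffold of the small-subunit complex, had a median log2 fold of -0.16 at 4 µM, and none passed 1.5-fold against control. By that size 10.6% of all considered rows were higher and 17.4% lower at 4 µM. The range ran from -0.45 for EIF3J, a loosely attached subunit, with 50.2, 48.1 and 36.6 FPKM, to 0.30 for EIF3CL, with 57.4, 64.6 and 70.8 FPKM. EIF3C and EIF3CL are near-identical copies, so their separate values are uncertain. EIF3C had 31.0, 35.7 and 37.3 FPKM, 0.540, 0.553 and 0.526 times EIF3CL. In all, 4 genes were above 0 and 10 below, or 6 and 8 with median-of-ratios scaling. The copies EIF3C and EIF3CL were both above 0 and are counted separately. As deposited, 59.9% of all considered rows were below 0 at 4 µM.

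Within eIF3, the core subunit EIF3A had the highest level in the control, with 86.6, 71.4 and 69.6 FPKM (-0.31 at 4 µM). EIF3D, a cap-contacting subunit, had 57.5, 64.6 and 67.1 FPKM (0.22), and EIF3L stayed near 76 FPKM in every library, at 76.0, 76.3 and 76.8. EIF3K had 16.1, 18.4 and 11.8 FPKM, a log2 fold of -0.61 from 2 µM to 4 µM that was below 1.5-fold under each scaling tried. EIF3B had 36.1, 36.8 and 32.2 FPKM and EIF3H had 34.0, 33.7 and 28.9. EIF3G, EIF3M, EIF3I, EIF3F and EIF3E lay between 6.90 FPKM (EIF3E at 4 µM) and 31.8 FPKM (EIF3G at 2 µM), with 4 µM folds of -0.10 (EIF3M) to -0.25 (EIF3G).

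Among the genes of eIF4F and its helpers, EIF4E3 had the lowest fold and the cap-binding EIF4E itself was lower only at 4 µM. EIF4E had 14.0, 14.5 and 10.5 FPKM, log2 folds of 0.05 at 2 µM and -0.39 at 4 µM. EIF4E2, a cap-binding relative tied to repression of mRNAs, had 7.67, 7.70 and 6.25 FPKM (-0.26). EIF4E3, an atypical cap-binding relative, had 3.96, 2.80 and 1.99 FPKM (-0.73), a fold that was below 1.5-fold with a pseudocount of 5.

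The scaffold EIF4G1 had 80.8, 68.4 and 73.8 FPKM (-0.13), with the other sign under median-of-ratios scaling, and EIF4G3 had 25.3, 19.7 and 18.7 FPKM (-0.42). EIF4G2, a relative that cannot bind eIF4E, was the most abundant of the group per exon length, with 189.7, 198 and 216 FPKM (0.18). The helicase gene EIF4A1 had 110.2, 128 and 103 FPKM (-0.10), a sign that turned under median-of-ratios scaling. Its paralog EIF4A2 had 58.0, 49.1 and 41.6 FPKM (-0.47), so that EIF4A2 stood at 0.527, 0.384 and 0.404 times EIF4A1.

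Of the helicase's helpers, EIF4B had 112, 85.2 and 80.3 FPKM, with folds of -0.40 at 2 µM and -0.48 at 4 µM, while EIF4H stayed at 85.0, 87.6 and 87.5 FPKM. EIF4A3, a subunit of the exon junction complex, had 13.0, 17.2 and 14.5 FPKM, and EIF4ENIF1, the carrier of eIF4E into the nucleus, 6.52, 7.71 and 6.50 FPKM. As deposited, 3 of the 12 were above 0 and 9 below at 4 µM, where 59.9% of all considered rows were below. With median-of-ratios scaling 6 were above 0 and 6 below.

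The repressors of eIF4E, which compete with eIF4G for it until mTORC1 phosphorylates them, went in different directions. EIF4EBP1 had 47.1, 77.1 and 86.8 FPKM, log2 folds of 0.70 at 2 µM and 0.87 at 4 µM, and most of its difference was present at the lower dose. EIF4EBP2 had 29.9, 26.3 and 24.1 FPKM (-0.30 at 4 µM). EIF4EBP3 was below the filter at 0.605, 0.610 and 0.319 FPKM. The readthrough row that joins it to ANKHD1 had 14.5, 9.49 and 7.96 FPKM, so its reads may be split between both rows.

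Set beside its target, EIF4EBP1 was 3.37, 5.30 and 8.28 times EIF4E. EIF4EBP2 was 2.14, 1.81 and 2.30 times EIF4E, with no such course. EIF4EBP1 was 1.58 times EIF4EBP2 in the control and 3.61 times at 4 µM. These are ratios of mRNA levels per exon length and say nothing of the proteins or their phosphorylation. The pseudogene row EIF4EP2 lay above EIF4E, at 20.4, 20.7 and 14.5 FPKM. Counting it with EIF4E would lower the ratios to EIF4E in every library. The joined exons of EIF4E span 14067 bases and those of EIF4EBP1 1073, so the size of their ratio is uncertain.

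The EIF4E promoter is shown because the gene is a known MYC target and its window holds a pair of E-boxes, capitalised below. The window is RefSeq chr4:98929124-98929383 (GRCh38.p14), written 5′ to 3′ on the minus strand, with the matches beginning at -225 and -72.
EIF4E: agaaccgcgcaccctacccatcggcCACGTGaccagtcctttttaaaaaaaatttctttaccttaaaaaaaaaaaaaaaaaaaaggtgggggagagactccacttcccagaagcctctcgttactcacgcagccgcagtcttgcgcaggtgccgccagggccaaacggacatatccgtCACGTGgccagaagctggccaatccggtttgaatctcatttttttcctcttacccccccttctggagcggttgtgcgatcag
CACGTG reads the same on both strands. It was found within 250 bases before to 50 after the start in 13 of the 54 members with a RefSeq promoter entry (24.1%). The share was 25.0% over the 48 considered members, 12.9% over the 9132 considered genes with an entry and 7.26% over all 35116 windows. A member or gene counted if any of its annotated starts had a match. Shares of windows count each start by itself, so they are not like for like with the others. The 12 considered members with an E-box had a median log2 fold of -0.28 at 4 µM and the 36 without one -0.21. With ranges of -1.04 (EEF1AKMT4) to 0.75 (EIF1B) and -0.73 (EIF4E3) to 1.11 (EIF1), these sets overlapped. The amino acid response element TGATGNAA, searched on both strands in the same windows, was present in 1 of 54, EIF4E3, against 2.58% of considered genes and 3.62% of all windows. The N is any base, and a TGATGNAA match can share its first TG with the end of a CACGTG.

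**Figure D3:**
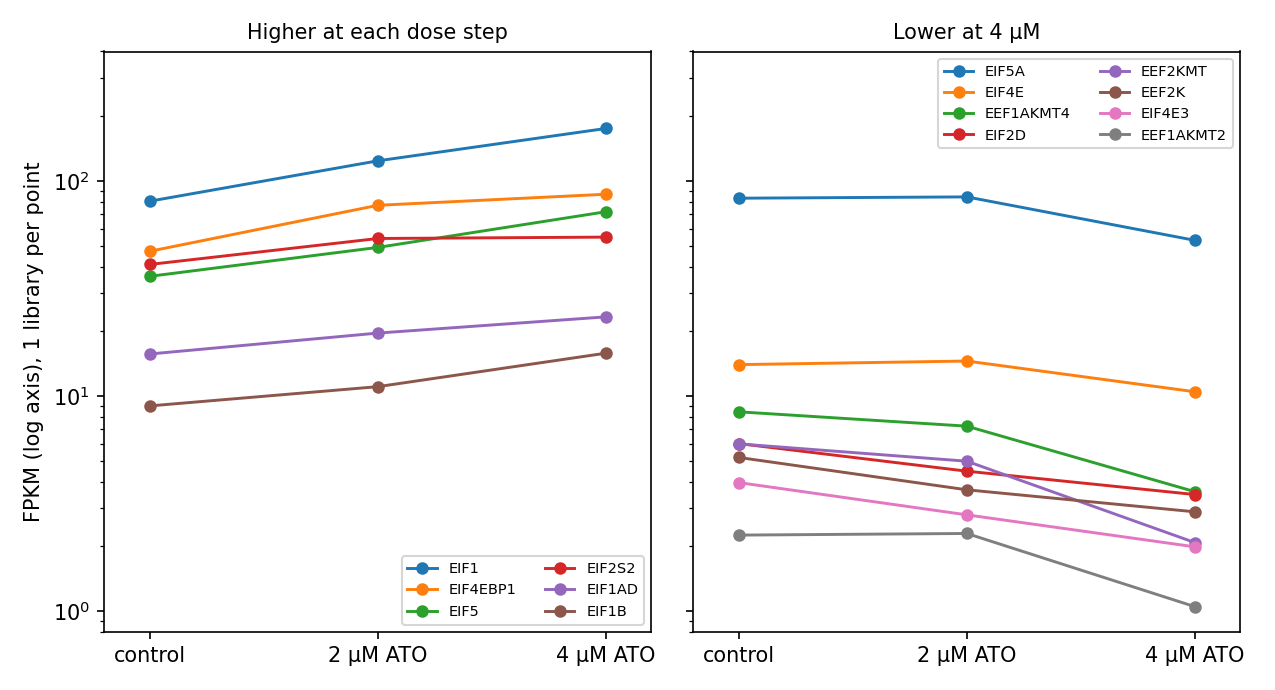
FPKM on a log axis (vertical) in the control, 2 µM and 4 µM libraries (horizontal), 1 library per point, for 6 members that were higher at each dose step (left) and 8 that were lower at 4 µM (right). EIF1 reaches 175 FPKM, while EIF5A, EIF4E and EEF1AKMT2 are level between control and 2 µM and lower at 4 µM.

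EIF5A, which carries the modified lysine hypusine and helps ribosomes through difficult peptide bonds, was lower at the higher dose only. It had 83.2, 84.3 and 53.0 FPKM, log2 folds of 0.02 at 2 µM and -0.64 at 4 µM, and the latter was below 1.5-fold with median-of-ratios scaling. Its paralog EIF5A2 had 2.60, 3.32 and 3.86 FPKM (0.43). EIF5A2 was thus 0.0313 times EIF5A in the control and 0.0729 times at 4 µM. EIF5AL1, a copy of EIF5A, was below the filter, at 0.957, 0.918 and 0.639 FPKM. EIF6, which keeps the ribosomal subunits apart, had 33.2, 39.5 and 30.4 FPKM (-0.12).

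EEF1A1, EEF2 and EEF1G, which belong to elongation, had the highest levels of all members per exon length in every library, and none passed 1.5-fold. EEF1A1, the carrier of aminoacyl-tRNA, had 861, 876 and 884 FPKM and ranked 22nd, 24th and 26th among all rows of its library. EEF2 had 707, 679 and 853 FPKM (0.27 at 4 µM), and EEF1G, a subunit of the eEF1 exchange complex, had 360.3, 381 and 290.1 FPKM (-0.31). EEF1A1, EEF2 and EEF1G together made up 49.0%, 47.7% and 49.9% of the members' summed FPKM. The members as a whole held 1.53%, 1.54% and 1.65% of the FPKM of their library.

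EEF1A2, the form of eEF1A typical of neurons and muscle, had 18.3, 21.0 and 26.0 FPKM, a log2 fold of 0.48 that was 0.63 with median-of-ratios scaling. It stood at 0.0213 times EEF1A1 in the control and 0.0294 times at 4 µM. The exchange factor subunits EEF1B2 and EEF1D had 106, 114 and 90.8 FPKM and 23.0, 22.8 and 21.0 FPKM. EEF1E1, which belongs to the complex of aminoacyl-tRNA synthetases, had 10.7, 11.2 and 7.30 FPKM (-0.49). EEF2K, the kinase that inactivates eEF2, was lower at each dose, with 5.18, 3.66 and 2.90 FPKM (-0.67 at 4 µM). Its fold was below 1.5-fold with median-of-ratios scaling or a pseudocount of 5.

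The first bases of the mRNA are shown because many translation factor mRNAs begin with C and a run of pyrimidines, the 5′ terminal oligopyrimidine (TOP) element through which mTORC1 controls their translation. The 20 bases from the RefSeq start (GRCh38.p14), 5′ to 3′, carry the opening pyrimidine run in capitals where it has C and at least 4 more. Of the genes shown, EEF1A1 lies at chr6:73521013-73521032 (minus), EEF2 at chr19:3985444-3985463 (minus), EEF1B2 at chr2:206159895-206159914 (plus) and EIF3D at chr22:36529147-36529166 (minus). EIF3F lies at chr11:7987337-7987356 (plus), EIF4B at chr12:53006456-53006475 (plus), EIF1 at chr17:41688885-41688904 (plus) and EIF5 at chr14:103334237-103334256 (plus).
EEF1A1: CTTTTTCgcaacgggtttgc
EEF2: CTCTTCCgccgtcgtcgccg
EEF1B2: CCTTTTTCCTCTCTTCagcg
EIF3D: CTCTTTTCCTggtttctcaa
EIF3F: CTTCTTTCTCgacaagatgg
EIF4B: CTTTTgcgttctctttccct
EIF1: gccccagtcactgagccgcc
EIF5: agtcagagcgagaacattcc
Such a start, looked for on the transcript strand only, was present in 13 of the 54 members with an entry and in 12 of the 48 considered ones (25.0%), against 7.78% of the considered genes. The 12 had a median level of 52.3 FPKM in the control and a median log2 fold of -0.20 at 4 µM, with a range from EIF2D (-0.64) to EEF2 (0.27). The 36 without it had a median level of 18.5 FPKM and a median fold of -0.21. EIF1 and EIF5, with the highest folds of the members, have no such start. This feature was chosen after the values were seen, and annotated starts need not be those used in these cells.

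The methyltransferases that modify lysines of eEF1A and eEF2 were the group with the lowest median, -0.67 over 5 genes at 4 µM. All 5 were below 0 under every scaling tried, where 59.9% of all considered rows were as deposited. EEF2KMT, which acts on eEF2, had 5.99, 4.98 and 2.08 FPKM, a log2 fold of -1.18. EEF1AKMT4 had 8.44, 7.24 and 3.59 FPKM (-1.04), or -0.91 with median-of-ratios scaling. With a pseudocount of 5 neither passed 2-fold, at -0.63 for EEF2KMT and -0.65 for EEF1AKMT4. EEF1AKMT2 had 2.26, 2.30 and 1.05 FPKM (-0.67), below 1.5-fold with median-of-ratios scaling (-0.58) or a pseudocount of 5. EEF1AKMT1 had 1.85, 2.37 and 1.16 FPKM (-0.40) and EEF1AKMT3 2.92, 3.39 and 2.19 FPKM (-0.30). At 2 µM the same genes lay between -0.23 and 0.24, with 3 above control, where 48.4% of all considered rows were below 0. In every case most of the difference arose between 2 µM and 4 µM. EEF1AKMT1 and EEF1AKMT2 were the only considered members with a counting error of 10% or more.

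The EEF1AKMT4 promoter is shown as that of the member with the lowest fold among those with an E-box. The window is RefSeq chr3:184249422-184249681 (GRCh38.p14, plus strand), with matches beginning at -229 and -97.
EEF1AKMT4: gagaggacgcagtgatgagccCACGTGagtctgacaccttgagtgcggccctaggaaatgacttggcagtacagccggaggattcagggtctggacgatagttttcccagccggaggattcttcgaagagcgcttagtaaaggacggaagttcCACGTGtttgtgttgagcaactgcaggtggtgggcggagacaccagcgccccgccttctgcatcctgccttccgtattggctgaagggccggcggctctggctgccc

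Processed copies complicate several of these values, since reads can be split between a gene and its pseudogenes. EEF1A1P5 was listed at 352, 334 and 385 FPKM beside EEF1A1, and EIF4EP2 at 20.4, 20.7 and 14.5 FPKM, above EIF4E itself. EIF5AP4 had 5.67, 5.71 and 3.65 FPKM and EIF1AXP1 9.54, 14.3 and 10.5 FPKM. In all, 16 of the 72 pseudogene rows left out had a mean of at least 1 FPKM. Adding each copy to its parent gene, an alternative chosen after seeing the data, moved the median fold at 4 µM by less than 0.01 and left the counts of members past 2-fold and 1.5-fold at 4 µM as they were.

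Beyond the factors themselves, 55 other genes that act on translation were listed in 8 groups, and 52 of them were considered. At 4 µM, 3 were higher by 2-fold or more and none was lower, beside 4.19% and 5.27% of all considered rows. At 1.5-fold, the same 3 were higher and 7 lower, beside 10.6% and 17.4% of all rows. With median-of-ratios scaling the 1.5-fold numbers were 4 and 4, beside 14.5% and 12.8% of all rows. The median was -0.24, close to the -0.21 of the factors.

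PPP1R15A, the stress-induced subunit that directs phosphatase to eIF2, had 11.5, 25.6 and 80.3 FPKM, a log2 fold of 2.70 at 4 µM. It was the only one of the 55 past 2-fold at 2 µM (1.09), where 1.16% of all considered rows were higher and 0.901% lower. Its constitutive counterpart PPP1R15B had 16.4, 17.6 and 25.0 FPKM (0.58, and past 1.5-fold under each scaling tried), and the phosphatase catalytic subunit PPP1CC had 28.2, 24.7 and 15.5 FPKM (-0.82). No eIF2 kinase, of 4, differed from control by 1.5-fold at either dose. By that size 10.6% of all considered rows were higher and 17.4% lower at 4 µM. At 2 µM these shares were 4.69% and 4.32%. EIF2AK1, the heme-regulated kinase, had 32.7, 35.2 and 29.4 FPKM (-0.15 at 4 µM), and EIF2AK2 had 13.9, 13.7 and 11.1 (-0.30). EIF2AK3 had 2.14, 2.18 and 2.74 FPKM (0.25), and EIF2AK4 had 6.34, 6.74 and 5.14 (-0.26).

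MKNK2, a kinase that phosphorylates eIF4E, had 7.27, 9.62 and 16.6 FPKM (1.09), and the mTORC1 subunit MLST8 had 10.3, 8.07 and 6.05 FPKM (-0.68). PELO, a ribosome rescue factor, had 7.55, 10.8 and 16.3 FPKM (1.02), and ABCE1, the recycling ATPase, had 36.8, 35.1 and 23.0 FPKM (-0.66). The initiation factor of mitochondria MTIF3 had 5.89, 6.22 and 3.25 FPKM (-0.70). With median-of-ratios scaling the numbers lower by 1.5-fold were 0 of 10 for mTORC1 and MAPK inputs, 0 of 7 for scanning and recycling and 0 of 9 for mitochondrial factors, which takes in MLST8, ABCE1 and MTIF3.

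Genes that modify eIF5A and eEF2 after synthesis had the lowest median of the 8 lists, -0.54 over 7 considered genes. Of the 7, 6 were below 0 as deposited, beside 59.9% of all considered rows, and 5 under each scaling tried. DPH2, DPH5 and DPH1 encode enzymes that build diphthamide, the modified histidine of eEF2 that diphtheria toxin attacks. DPH2 had 13.5, 12.5 and 6.42 FPKM (-0.97), DPH5 had 5.82, 4.85 and 2.60 (-0.92) and DPH1 had 4.63, 3.41 and 2.25 (-0.79). As with the lysine methyltransferases of the elongation factors, DPH2 and DPH5 had most of their difference between 2 µM and 4 µM.

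The remaining lists had no gene past 1.5-fold at 4 µM. Their median log2 folds were -0.28 for 4 poly(A)-binding proteins and partners, -0.22 for 3 termination factors and -0.44 for 3 genes of selenoprotein elongation. The medians of the lists with a gene past 1.5-fold were -0.15 for 9 eIF2 kinases and phosphatase subunits, -0.13 for 10 inputs to eIF4F, 0.02 for 7 scanning and recycling factors and -0.41 for 9 mitochondrial factors.

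**Figure D4:**
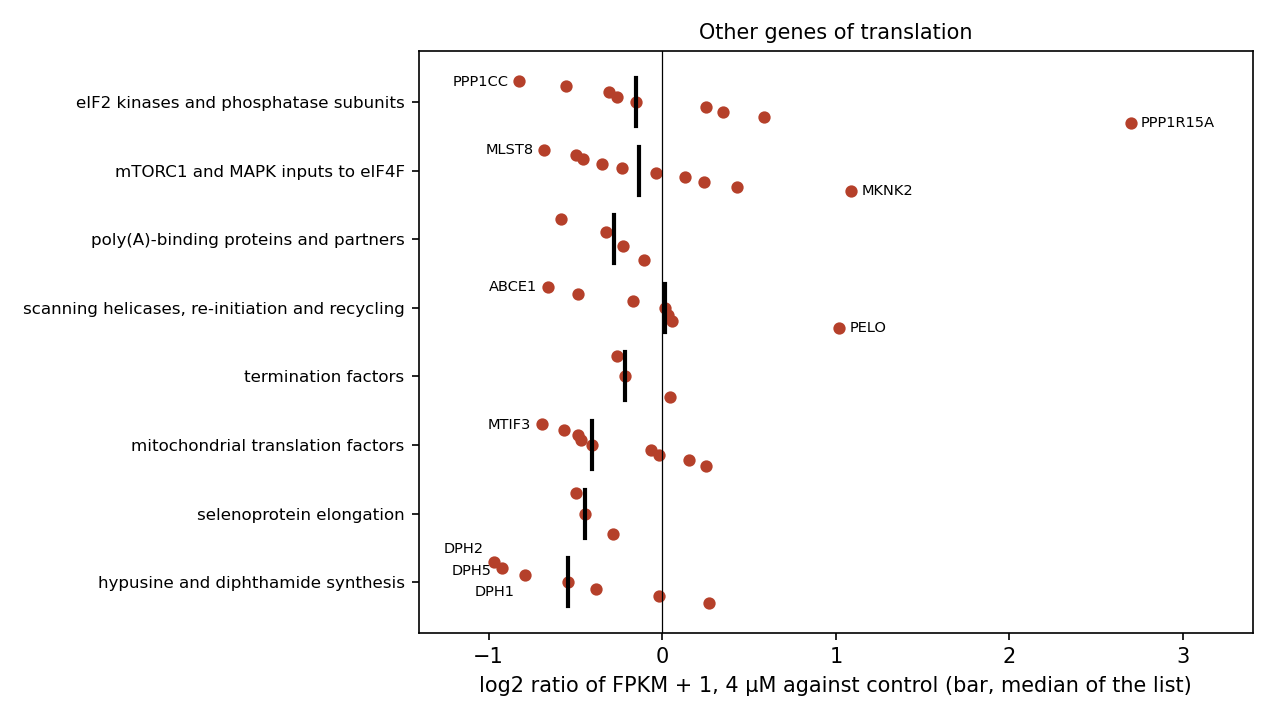
Log2 ratio of FPKM + 1 at 4 µM against control (horizontal axis) for the 52 considered genes of 8 lists of other translation genes (vertical axis), with 1 point per gene, a black bar at each list's median and names at 1.5-fold or more. PPP1R15A stands apart at 2.70, and the list of hypusine and diphthamide synthesis has the lowest median, -0.54.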

How the data were processed

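RNA of 3 SK-N-BE(2) cultures, 1 per group, was made into paired-end TruSeq libraries, per the labels' protocols. The authors deposited FPKM per gene and library, per the file headers. Which aligner, counter, strand setting and annotation were used is not given in the sources used here. GRCm38 and mm10, both mouse builds, stand in the submitters' processing notes, but the gene symbols are human. No coordinates rest on the deposited table. Overlapping and antisense genes are uncertain.

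FPKM multiplied by union exon length (GENCODE 29) gave whole multiples of a common step, within 0.01 millionths, for 22.0% of 14147 rows, against 0.474% at that length plus 7 bases, so the annotation differs in part. Counts were not recovered.

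Rows averaging 1 FPKM or more over the libraries were considered, and log2 folds of FPKM + 1 were read against size rules of 2-fold and 1.5-fold. With 1 library per group there is no spread between replicates and no test. The 2-fold rule was tried on simulated libraries with folds planted only in rows averaging 10 FPKM or more. The 1.5-fold rule and planted folds in lower rows were not tried. Members, lists and tests were chosen with earlier results of these data known. Genes named in full were the 10 highest and 10 lowest considered members at 4 µM, the eIF4E, eIF2 and eIF2B genes, paralog pairs and each role's extremes. In other lists up to 3 genes with the largest absolute fold were named where past 1.5-fold, and some further genes were added after their values were seen. A planned comparison of paralog proteins was not run. Alternatives were pseudocounts of 0.1 and 5, no filter, a mean of at least 10 FPKM, and median-of-ratios, upper-quartile and TPM scaling. Sequences are from RefSeq (GRCh38.p14) and GENCODE 29. Python 3.11.15, numpy 2.4.6, pandas 2.3.3 and matplotlib 3.10.9 were used.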

Additional observations from a re-analysis of the deposited data

How the results depend on the processing

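No paired analysis was possible because each group had 1 library. Of 321 values of 38 named members at 4 µM under the alternatives, 308 kept their side of 1.5-fold, 13 did not and none of the called ones changed sign. Dropping the filter, raising it to a mean of 10 FPKM or leaving out divergent transcripts cannot alter a gene's fold. The 38, 24 and 37 values under these settings were thus the same in advance and say nothing of stability. Members past 2-fold at 4 µM numbered 3 as reported, and 1 with a pseudocount of 5 or with a mean of at least 10 FPKM. With that pseudocount 1.76% of all rows were higher and 1.38% lower by 2-fold, and at that mean 6.08% and 5%. From 2 µM to 4 µM the number of members past 2-fold was 0, against 2 with a pseudocount of 0.1 and 1 with TPM. All rows then had 2.14% higher and 3.77% lower with that pseudocount, and 2.45% and 2.16% with TPM. Members past 1.5-fold at 4 µM numbered 11, against 6 with a pseudocount of 5 and 5 with a mean of at least 10 FPKM, which leaves 44 members. With that pseudocount 5.79% of all rows were higher and 6.7% lower by 1.5-fold, and at that mean 14.1% and 15.3%. From 2 µM to 4 µM the members past 1.5-fold numbered 6, against 1 with a pseudocount of 5 and 2 with a mean of at least 10 FPKM. The shares of all rows were 1.91% and 2.66%, and 5.33% and 10.5%. At 2 µM the members past 1.5-fold numbered 2, against 1 with upper-quartile scaling, where 4.1% of all rows were higher and 4.96% lower. The median fold of the members was -0.061 at 4 µM and -0.077 from 2 µM to 4 µM with median-of-ratios scaling, and -0.12 for that step with a mean of at least 10 FPKM, as for all rows at that level. The sign turned for EIF2B2, EIF2S3, EIF4A1 and EIF4G1 in 7 values, none past 1.5-fold. The 2 alternatives chosen after seeing the data, adding copies and leaving out divergent transcripts, moved no count of calls by over 1.5 times and no median by 0.1. Rescaling to TPM with 1 added acts like a smaller pseudocount. Beyond these, causes were not tested. Depth limits EIF4EBP3 most, with a counting CV of 50.6%, and among considered members EEF1AKMT1, with 19.1%.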
